A study of Mus musculus with 6 samples.

Results

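The lysosomal genes described here were 42 of the 25330 genes listed in 6 RNA-seq libraries, and they were found by exact match of their symbols. They comprised the 3 transcription factor genes of the TFEB family, 6 genes of lysosomal membrane proteins, 21 genes of hydrolases and the precursors of their cofactors, and 12 genes of the proton pump (V-ATPase) and its accessory proteins. The libraries were made from AML12 cells, a mouse hepatocyte line derived from a mouse that carries a human TGFA transgene under a metallothionein promoter. All cells were wild type by their labels and were grown in DMEM/F12 with serum, an insulin, transferrin and selenium supplement and dexamethasone. The 3 control libraries came from cells kept in 21% oxygen. The 3 hypoxia/reoxygenation (H/R) libraries, named H6R2 in the labels, came from cells held for 6 h in 1% oxygen in medium without serum or glucose and then reoxygenated for 2 h. The effects of oxygen and of the change of medium therefore cannot be told apart. Nothing in the labels says that libraries of a group came from separate cultures, so the p-values measure the spread between these libraries, which may be technical.

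Lysosomes degrade material delivered by autophagy and endocytosis, and their hydrolases work best at the acidic pH that the V-ATPase maintains by pumping protons into the lumen. The pump has a cytosolic V1 sector that hydrolyses ATP and a membrane V0 sector that conducts protons, and the sectors can come apart and reassemble. TFEB, TFE3 and MITF are related helix-loop-helix factors that activate many lysosomal and autophagy genes; they are held in the cytoplasm when phosphorylated by mTORC1 and move to the nucleus on starvation, so that mRNA levels need not follow their activity. In liver, this system clears organelles and lipid droplets and supplies amino acids during fasting.

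Each library held between 20438746 and 21854790 counts. Counts were scaled between libraries by TMM factors and are given as normalized counts, and a gene was called higher or lower in H/R when its adjusted p in edgeR's quasi-likelihood test was under 0.05. The cells were checked against marker genes. All 8 hepatocyte markers were detected, with a summed level of 4143 to 4489 CPM in control and 6111 to 6142 CPM in H/R, most of it from the keratin genes Krt8 and Krt18. Those keratin genes rose (log2 fold change 0.66 each), and the other 6 markers were called lower in H/R, from -0.41 for Hnf4a to -2.85 for Alb and -3.07 for Ttr. The macrophage list, of interest because macrophages are rich in lysosomes, summed to 37.4 to 41.8 CPM in control and 21.5 to 24.4 CPM in H/R. That sum came almost wholly from Cd14 and Csf1r, while Adgre1 and Ptprc had at most 3 counts in any library. Control replicate 1 stood apart, with 59 genes at 10 or more counts that had at most 2 in every other library, and with 542 counts of Alb against 132 and 209 in the other control libraries. No lysosomal gene was among those 59.

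Of the 42 genes, 41 had enough counts to be tested, and 15 were called higher in H/R, 8 lower and 18 neither. The share called was 56.1%, against 62.8% of all 14020 genes tested. By direction, 36.6% of the tested members were higher and 19.5% lower, beside 31.0% and 31.8% of all genes. The changes were small. The median log2 fold change of the members was 0.05, with a range from -1.31 to 1.64, and this median turned to -0.02 with upper quartile scaling and to -0.055 with library totals alone, while that of all genes was -0.014, -0.084 and -0.12 under TMM, upper quartile and library totals. The split of the calls moved with it, from 15 higher and 8 lower to 14 and 13 with upper quartile scaling and to 13 and 14 with library totals. As shares of those tested, the members then stood at 34.1% higher and 31.7% lower with upper quartile scaling, beside 26.3% and 36.8% of all genes, and at 31.7% and 34.1% with library totals, beside 23.9% and 39.1%. Mitf, higher, and Gusb, lower, were the only members that passed a 2-fold change as well, which 8.52% of all genes did (4.25% higher and 4.27% lower). The 3 control and 3 H/R values did not overlap for 17 members that lay higher and 8 that lay lower, and non-overlap was seen for 65.9% of all genes tested.  Without Control replicate 1, 15 members were higher (36.6%) and 9 lower (22.0%), beside 29.0% and 29.4% of all genes tested in that fit.

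Of the 12 proton pump genes, 8 were higher (66.7%) and none lower, with a median log2 fold change of 0.29. Among the 20 hydrolase genes tested, 5 were higher (25.0%) and 8 lower (40.0%), and the median was -0.087. Of all genes tested, 31.0% were higher and 31.8% lower. The 65.0% of hydrolase genes called lay near the 62.8% of all genes. None of the 6 membrane protein genes was called in edgeR or in DESeq2, although 1 of them had an unadjusted p under 0.05 in edgeR, and the median was -0.021. In the TFEB family, Mitf and Tfe3 were higher and Tfeb was not called. Summed over the group, the pump genes had 23286 to 24619 normalized counts in control and 29996 to 31160 in H/R, so that every H/R library was higher. The summed hydrolase genes had 34922 to 36891 in control and 36121 to 36917 in H/R, and the summed membrane genes 20648 to 22178 and 20791 to 21754, both of which overlapped. As shares of all counts in a library, the hydrolase genes instead made up 0.170% to 0.184% in control and 0.166% to 0.167% in H/R. These values did not overlap. The membrane genes made up 0.101% to 0.111% in control. Every H/R library lay below that range, the lowest at 0.0940% and H/R replicate 3 only narrowly. The pump genes were still higher in H/R (0.114% to 0.119% against 0.136% to 0.141%). In bulk libraries such as these, a lower level in each cell and fewer cells that carry the RNA cannot be told apart.

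**Figure D1:**
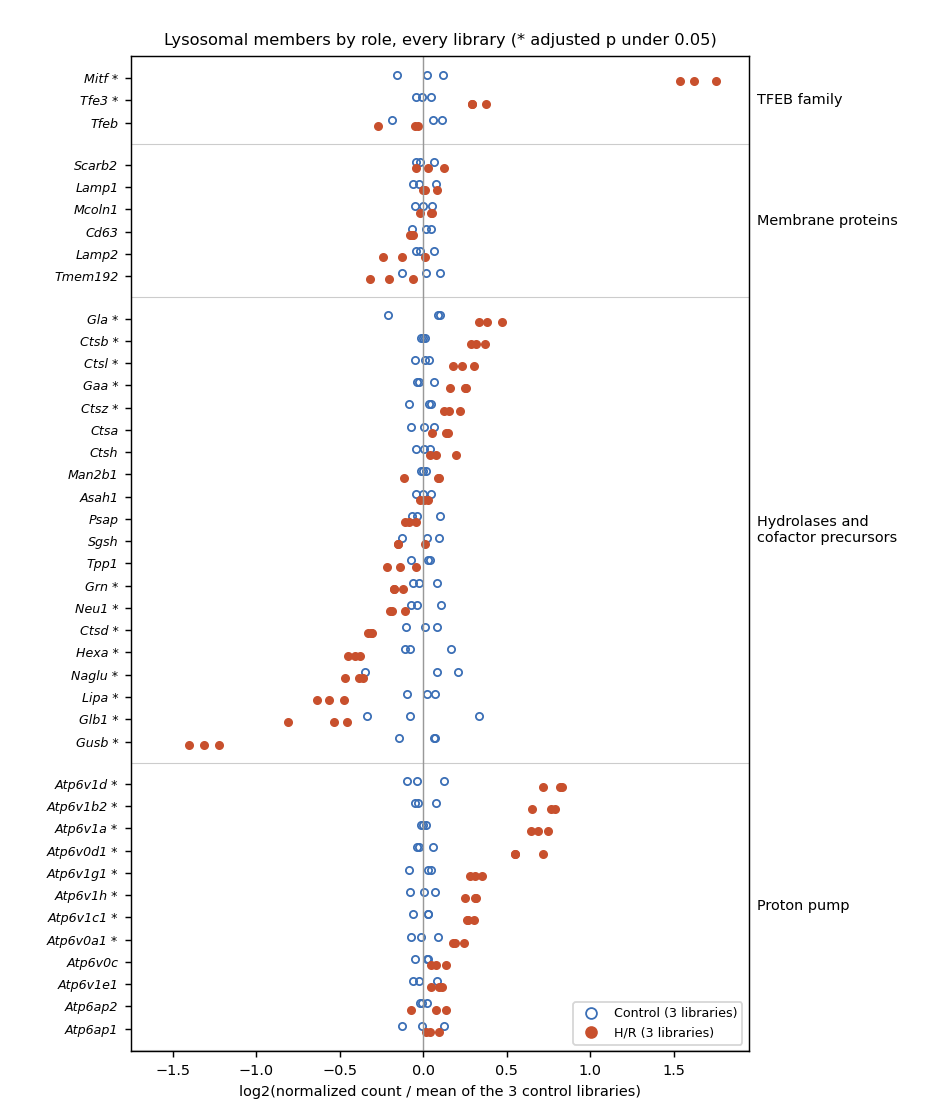
The log2 ratio of each library's normalized count to the mean of the 3 control libraries (x axis) is plotted for the 41 tested genes, sorted within each role group, with control libraries as open blue circles and H/R libraries as filled orange circles. Mitf at the top and Gusb stand furthest from 0 (log2 fold changes of 1.64 and -1.31), and asterisks mark the 23 genes called under TMM scaling.

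Among the TFEB family, Mitf showed the largest change of all 42 genes. It encodes a factor best known from melanocytes that is also made at low levels in many tissues. Mitf (chromosome 6, 97807052 to 98021349, plus strand, GRCm38) had normalized counts of 81.4, 98.5 and 92.3 in control and 264, 306 and 279 in H/R. Every H/R library was thus above every control library. The means were 90.7 ± 8.64 and 283 ± 21.5 (SD, n = 3 each), a 3.12-fold rise with a log2 fold change of 1.64 ± 0.113 (SE) and an adjusted p of 8.94e-15 in edgeR. The rise kept its size under all 12 alternative fits, between 1.54 and 1.70. The melanocyte markers summed to 0.476 to 1.41 CPM in control and 1.17 to 1.56 CPM in H/R. Of these, Tyr had no row, Dct, Mlana and Tyrp1 had at most 2 counts in any library, and Pmel, with 8 to 34 counts, was not called. The exact two-sided permutation test of 3 libraries against 3 cannot give a p below 0.1, which is what it gave for Mitf and for each gene whose groups did not overlap.

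Tfe3, the family member with the highest level in both groups, rose by a smaller factor. Its normalized counts were 978, 919 and 939 in control and 1157, 1229 and 1158 in H/R, so that the groups did not overlap. The means rose from 945 ± 30.2 to 1181 ± 41.6, a log2 fold change of 0.32 ± 0.0532 (adjusted p = 2.85e-06), and the fold was 1.25. Tfeb, whose product gave the family its name, had 219, 178 and 211 in control and 168, 196 and 198 in H/R. These values overlapped, and the log2 fold change of -0.11 ± 0.108 was not called (adjusted p = 0.381). Per combined length of all exons of each gene, Tfe3 stood at 5.00 ± 0.141 RPKM in control and 5.81 ± 0.192 in H/R, Tfeb at 1.75 ± 0.192 and 1.51 ± 0.144, and Mitf at 0.717 ± 0.0732 and 2.08 ± 0.158. That length is not the length of the transcript expressed. On this scale, Mitf was the lowest of the 3 in control, where its highest library (0.775) lay below the lowest of Tfeb (1.53). In H/R it ranked above Tfeb, its lowest library (1.93) lying over the highest of Tfeb (1.61). Protein was not measured here.

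The genes that control these factors at the lysosome were taken from a wider list of 94 lysosomal genes. Of the 79 genes of that list that were tested, 58.2% were called, 24.1% higher and 34.2% lower, beside 62.8%, 31.0% and 31.8% of all genes. TFEB and its relatives are recruited to lysosomes and presented to mTORC1 by the Rag GTPases, whose state is set by the folliculin complex and by the Ragulator scaffold. Of the 11 genes of this kind that could be tested, 5 were higher (45.5%) and 2 lower (18.2%). Fnip1, a partner of folliculin, had 664, 679 and 717 normalized counts in control and 2185, 2272 and 2338 in H/R. This 3.30-fold rise (log2 fold change 1.72 ± 0.0513, adjusted p = 8.03e-25) was above the 3.12-fold of Mitf, and the difference between them was not tested. Flcn, which encodes folliculin itself, had 228, 239.9 and 281 in control and 653, 692 and 709.5 in H/R. It rose 2.74-fold, by 1.46 ± 0.0786 on the log2 scale (adjusted p = 1.29e-17). The second partner gene, Fnip2, rose as well (0.31 ± 0.0578), as did the Rag gene Rragc (0.32 ± 0.0491) and the Ragulator gene Lamtor3 (0.48 ± 0.0525).

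Other genes of the Rag and Ragulator complexes went down or were not called. Rragb, which encodes RagB, had 309, 318 and 323 normalized counts in control and 149, 146 and 149.9 in H/R, a fall to 0.468 of the control level (log2 fold change -1.10 ± 0.0954, adjusted p = 3.94e-12). Its close relative Rraga, at 0.15 ± 0.0711, missed the threshold (adjusted p = 0.0592). Lamtor1, the membrane anchor of Ragulator, fell by 0.39 on the log2 scale, and 18.7% of its exons were shared with another gene. The remaining Ragulator genes Lamtor2, Lamtor4 and Lamtor5 were not called, with log2 fold changes of -0.055, -0.031 and -0.047.

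**Figure D2:**
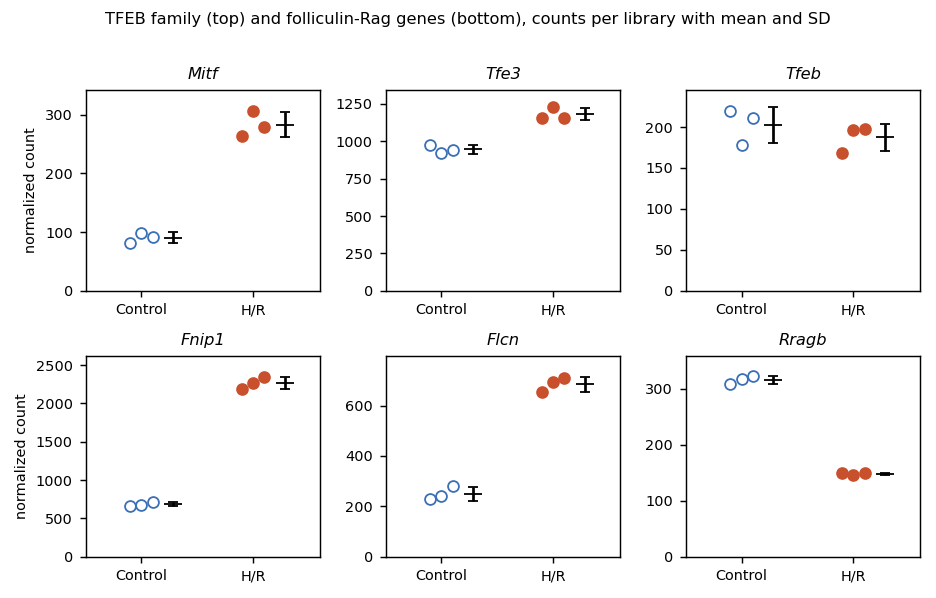
Normalized counts (y axis, from 0) are shown for each control and H/R library, with the mean and SD of 3 libraries to the right of each group. Mitf, Tfe3, Fnip1 and Flcn lay higher in all 3 H/R libraries, Rragb lay lower in all 3, and the Tfeb groups overlapped.

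The genes of lysosomal membrane proteins changed little. Lamp1, a heavily glycosylated coat protein of the membrane, had 9780.3, 9544 and 10498 normalized counts in control and 9936, 10023 and 10515 in H/R. The groups overlapped, and its log2 fold change of 0.031 ± 0.0450 (adjusted p = 0.565) became -0.039 and -0.074 with upper quartile scaling and library totals. Scarb2, which encodes the membrane receptor LIMP-2, had 1780.1, 1650.2 and 1677 in control and 1649, 1737 and 1852 in H/R (0.037 ± 0.0496, adjusted p = 0.534, and -0.033 and -0.067 with the same scalings). Mcoln1, the gene of the calcium channel TRPML1, had 873, 905 and 844 in control and 904, 908 and 861 in H/R. Its difference of 0.027 ± 0.0556 (adjusted p = 0.689) was likewise negative with those scalings, at -0.043 and -0.077.

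Lamp2, Cd63 and Tmem192 lay slightly lower in H/R without being called. Lamp2, whose splice form LAMP2A serves chaperone-mediated autophagy, had 1809, 1841 and 1947 normalized counts in control and 1706, 1579 and 1877 in H/R, and a log2 fold change of -0.12 ± 0.0530 (adjusted p = 0.0572). It was called lower under 7 of 12 alternatives, among them the fits without Control replicate 1 (-0.14, adjusted p = 0.0472) and without H/R replicate 3 (-0.18, adjusted p = 0.00515). The tetraspanin gene Cd63 had 6845, 6451 and 6970.4 in control and 6404, 6463 and 6441 in H/R (-0.07 ± 0.0418, adjusted p = 0.147), and without Control replicate 2 it was called lower (-0.10, adjusted p = 0.0328). Tmem192, a homodimeric membrane protein often used as a lysosomal tag, had 219.7, 257 and 242 in control and 192, 229.7 and 208 in H/R (-0.19 ± 0.10, adjusted p = 0.0945). The call went to lower without Control replicate 1 (-0.25, adjusted p = 0.0480) and without H/R replicate 2 (-0.26, adjusted p = 0.0472). With upper quartile scaling or library totals, all of Lamp2, Cd63 and Tmem192 were called lower, so that whether the membrane genes stayed level or fell slightly depended on the scaling.

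Of the 17 membrane protein genes tested from the wider list, 5 were higher and 5 lower. These shares, 29.4% each, lay near the 31.0% and 31.8% of all genes. Npc1, which exports cholesterol from lysosomes, had 772, 722 and 813 normalized counts in control and 1388, 1323 and 1323 in H/R, a 1.75-fold rise (log2 fold change 0.81 ± 0.0552, adjusted p = 8.06e-15). Clcn7, the chloride and proton exchanger that works beside the pump, rose by 0.60 ± 0.0774, whereas its partner Ostm1 was not called (-0.031 ± 0.0745). Cd68, a heavily glycosylated membrane protein used as a macrophage marker, stood out after its values were seen. Its normalized counts were 15.1, 21.5 and 20.7 in control and 132, 122 and 137 in H/R, a 6.80-fold rise (log2 fold change 2.77 ± 0.189, adjusted p = 8.00e-15). Of the 12 macrophage markers, 8 had a row and 3 exceeded 3 counts in any library. The summed macrophage list was lower in H/R (21.5 to 24.4 CPM) than in control (37.4 to 41.8 CPM). Its most abundant gene, Cd14, fell (log2 fold change -0.79 ± 0.0696, adjusted p = 5.80e-12 in edgeR). The macrophage marker Csf1r had 42 to 57 counts in control and 60 to 79 in H/R (log2 fold change 0.63 ± 0.185, adjusted p = 0.00362). Csf1r shared 17.8% of its exons with Hmgxb3, a gene on the opposite strand. Any part of macrophages in the rise of Cd68 was not tested. Genes that fell included Abca2, a lipid transporter (-0.54 ± 0.0664), and Slc17a5, the sialic acid exporter (-0.54 ± 0.120).

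Each of the 12 proton pump members that was called was called higher. In the V1 sector, 6 of 7 members were higher in H/R (85.7%, beside 31.0% of all genes). Atp6v1d, which encodes the D subunit of the central stalk, had 3243, 2772 and 2897 normalized counts in control and 4883, 5237 and 5293 in H/R. Even the highest control library was well under the lowest H/R library, and the mean rose from 2971 ± 244 to 5138 ± 222, 1.73-fold (log2 fold change 0.79 ± 0.0497, adjusted p = 5.24e-14). Atp6v1b2 and Atp6v1a, the genes of the B and A subunits that form the ATP-hydrolysing ring, rose almost as much. Atp6v1b2 had 2156, 1979.9 and 2008 in control and 3217, 3474 and 3533 in H/R (1.66-fold, log2 fold change 0.73 ± 0.0465, adjusted p = 9.95e-16). Atp6v1a had 1019.8, 1006 and 999.8 in control and 1621, 1577 and 1689.8 in H/R (1.62-fold, 0.69 ± 0.0498, adjusted p = 2.82e-14). In both genes the groups were apart by more than the whole range within either group.

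The remaining V1 genes changed less. Atp6v1g1, of the peripheral stalks, Atp6v1h, a regulatory subunit, and Atp6v1c1, which joins V1 to V0, had log2 fold changes of 0.31 ± 0.0443, 0.29 ± 0.0624 and 0.28 ± 0.0465, with adjusted p between 1.61e-07 and 0.000121. Atp6v1e1, the other stalk subunit, was not called (0.085 ± 0.0441, adjusted p = 0.0948). Its control libraries had 3462, 3738 and 3383 normalized counts, and without Control replicate 2 it was called higher (0.13, adjusted p = 0.0115), while with library totals its difference was -0.02. The V1 gene of the wider list with the highest counts, Atp6v1f, rose by 0.25 ± 0.0459.

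In the V0 sector, Atp6v0d1, which couples the rotating ring to the V1 stalk, had 565, 561 and 599.7 normalized counts in control and 843, 947 and 841 in H/R. That 1.52-fold rise (0.61 ± 0.0619, adjusted p = 1.72e-10) was followed by a smaller one of Atp6v0a1, of the proton path, from 5528 ± 313 to 6369 ± 159.9 (0.20 ± 0.0435, adjusted p = 0.000118). Atp6v0c, which encodes the proton-carrying ring subunit, was not called (0.087 ± 0.0479, adjusted p = 0.116, and -0.018 with library totals), and 27.4% of its exons were shared with Gm43796, a gene model that lies wholly within exons of Atp6v0c and Tbc1d24. The accessory genes Atp6ap1 and Atp6ap2 were not called either in edgeR or in DESeq2, and neither had an unadjusted p under 0.05 in edgeR. Their log2 fold changes of 0.05 ± 0.0608 and 0.051 ± 0.0593 turned to -0.02 and -0.019 with upper quartile scaling and to -0.055 and -0.054 with library totals. The 8 pump genes called higher were called in every one of the 12 alternative fits, and none of the 12 members was called lower in any of them.

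Several pump subunits exist in forms made from separate genes, and the forms did not move together. Of the 4 forms of the a subunit, which steers the pump to its membrane, Atp6v0a1 rose while Tcirg1 (a3) and Atp6v0a4 fell, by 0.20 ± 0.0809 and 0.40 ± 0.154 on the log2 scale, and Atp6v0a2 was not called (-0.051 ± 0.0520). Atp6v0a1 therefore made up 75.3% ± 0.518 of the RPKM of these forms in control and 79.2% ± 0.268 in H/R, and its lowest share in H/R (79.0%) was above its highest in control (75.9%). The small subunit gene Atp6v0e also fell (-0.46 ± 0.0733), while Atp6v0e2 was not called (0.065 ± 0.213). For the C and G subunits, the listed members Atp6v1c1 and Atp6v1g1 carried nearly all of the RPKM of their forms, as the share of Atp6v1g1 in control (98.9% ± 0.200) shows.

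Genes that assemble the pump behaved in opposite ways. Tmem199, an assembly factor of the V0 sector, had 1157, 1088 and 1115 normalized counts in control and 508, 516 and 572 in H/R. It fell to 0.475 of the control level (log2 fold change -1.07 ± 0.0598, adjusted p = 3.02e-17), further than any of the other pump genes listed. Ccdc115, the partner of Tmem199 in assembly, rose by 0.38 ± 0.0648, and the chaperone gene Vma21 fell by 0.43 on the log2 scale (SE 0.120). Dmxl1 and Dmxl2, whose products help the V1 sector rejoin V0, were called higher, by 0.46 ± 0.0668 and 0.39 ± 0.126. The Dmxl2 groups overlapped, with 135, 118 and 115 normalized counts in control and 134, 179 and 169.9 in H/R. In all, 4 of the 15 pump genes tested from the wider list were higher (26.7%) and 5 lower (33.3%). These shares lay near the 31.0% and 31.8% of all genes.

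**Figure D3:**
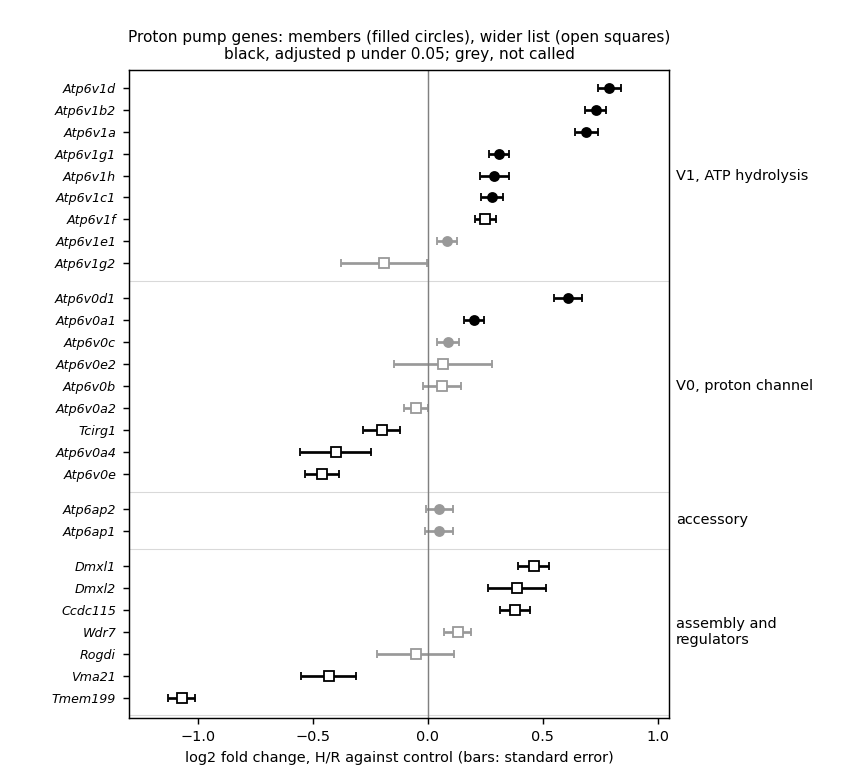
The log2 fold change of H/R against control (x axis, bars showing the standard error) is plotted for proton pump genes by sector, with members as filled circles and genes of the wider list as open squares, black where called under TMM scaling and grey where not. All 8 black circles lie to the right of 0, led by Atp6v1d at 0.79, and Tmem199 lies furthest to the left at -1.07.

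The hydrolase genes went in both directions. Of the 8 glycosidase genes, 5 were lower (62.5%) and 2 higher (25.0%). Of the 7 protease genes tested, 3 were higher (42.9%) and 1 lower (14.3%). Among all genes, 31.0% were higher and 31.8% lower. This division was drawn up after the values had been seen and carries no test. Gusb, the gene of beta-glucuronidase, fell the most. Its normalized counts were 230.1, 198 and 229.7 in control and 82.9, 88.4 and 93.9 in H/R, so that each H/R library had less than any control library. The mean fell from 219 ± 18.4 to 88.4 ± 5.50, to 0.404 of control (log2 fold change -1.31 ± 0.119, adjusted p = 1.20e-11). Across the alternatives it ranged from -1.41 to -1.26.

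Lipa, Hexa and Glb1 also fell. Lipa, the acid lipase that frees cholesterol and fatty acids from lipoproteins and lipid droplets, had 705, 629 and 683 normalized counts in control and 432, 454 and 484 in H/R. The decrease, to 0.679 of control (-0.56 ± 0.0673, adjusted p = 7.08e-09), exceeded the spread within either group. Hexa, the alpha subunit of hexosaminidase A, had 575, 563 and 681 in control and 457, 443 and 466 in H/R (-0.41 ± 0.0725, adjusted p = 7.50e-06). Glb1, the gene of the lysosomal beta-galactosidase, had 88.1, 105 and 140.3 in control and 63.5, 76.6 and 80.9 in H/R. Its log2 fold change of -0.59 ± 0.164 (adjusted p = 0.00225) rested in part on Control replicate 3, without which it was -0.39 with an adjusted p of 0.0544.

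The other 4 genes called lower changed by smaller amounts. Naglu, a heparan sulfate glucosaminidase, stood at -0.41 ± 0.123 on the log2 scale (adjusted p = 0.00476) and was not called without Control replicate 1 (-0.29, adjusted p = 0.0622). Ctsd, the aspartic protease cathepsin D, fell from 7212 ± 464 to 5791 ± 56.3 normalized counts (-0.32 ± 0.0444, adjusted p = 1.47e-07). Of its exons, 34.4% were shared with RP23-145I16.3, a gene model that lies wholly within exons of Ctsd and Ifitm10 and whose own counts were lower by a like amount (-0.33 ± 0.0439). Grn, the gene of progranulin, fell by 0.16 (SE 0.0464, adjusted p = 0.00363). Neu1, a sialidase, also had -0.16 (SE 0.0665, adjusted p = 0.0319), a call that did not hold in DESeq2 (adjusted p = 0.175), without a filter on low counts (0.0528), or without Control replicate 3 (-0.11, adjusted p = 0.218), H/R replicate 1 (0.0869) or H/R replicate 2 (0.103).

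Genes called higher were led by Gla, the alpha-galactosidase that degrades globotriaosylceramide. It had 356, 289.7 and 359 normalized counts in control and 422, 436 and 464 in H/R, a 1.32-fold rise (0.40 ± 0.0836, adjusted p = 0.000107). Ctsb and Ctsl, the cysteine proteases cathepsin B and cathepsin L, were among the most abundant hydrolase transcripts. Ctsb had 3126, 3072 and 3095 in control and 3772, 4002 and 3853 in H/R (1.25-fold, 0.32 ± 0.0420, adjusted p = 3.21e-08). It shared 16.2% of its exons with Fdft1, a gene on the opposite strand whose counts fell by 0.11 on the log2 scale. Ctsl had 8651, 8529 and 8177 in control and 10430.0, 9937 and 9549 in H/R (1.18-fold, 0.24 ± 0.0442, adjusted p = 1.71e-05). Gaa, the acid glucosidase that breaks down glycogen in lysosomes, had 879.6, 888 and 944 in control and 1081, 1076 and 1012 in H/R. Its 1.17-fold rise (0.22 ± 0.0547, adjusted p = 0.000582) was no longer called with library totals (0.12, adjusted p = 0.0661). Ctsz, or cathepsin Z, rose by 0.17 ± 0.0448 and lost its call with upper quartile scaling (0.10, adjusted p = 0.0612) and library totals (0.061, adjusted p = 0.240).

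The 7 hydrolase genes not called lay between -0.13 (Tpp1, a tripeptidyl peptidase) and 0.11 (Ctsa and Ctsh, proteases of the carboxypeptidase and cathepsin kinds). Asah1, the acid ceramidase, was nearest to 0 at 0.0052 ± 0.0421 and was -0.10 with library totals (adjusted p = 0.0309). Psap, which encodes the precursor of the saposins, had -0.077 ± 0.0458 and was called lower without Control replicate 2 (-0.11, adjusted p = 0.0386), with upper quartile scaling (-0.15, adjusted p = 0.00566) and with library totals (-0.18, adjusted p = 0.00151). Tpp1 was also called lower with those scalings (-0.20, adjusted p = 0.0475, and -0.24, adjusted p = 0.0239). Sgsh, a sulfamidase, had -0.10 ± 0.0960 and shared 21.6% of its exons with Card14, a gene on the other strand that rose 4.11-fold. Ctsf, or cathepsin F, was not tested, with 3, 1 and 4 counts in control and 2, 0 and 0 in H/R. A difference in Ctsf was not detectable at this depth.

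Of the 28 hydrolases tested from the wider list, 12 were lower (42.9%) and 5 higher (17.9%), and the 60.7% called lay near the 62.8% of all genes. The steepest fall was that of Dnase2a, the acid DNase of lysosomes, which had 213, 207 and 251 normalized counts in control and 113, 130.5 and 108 in H/R (-0.93 ± 0.116, adjusted p = 1.21e-08), with 30.0% of its exons shared with another gene. Galc, which degrades galactosylceramide, fell by 0.72 (SE 0.0958). In the other direction, Lgmn, the protease legumain that matures several cathepsins, rose by 0.56 ± 0.0545. Hydrolases reach the lysosome through a mannose 6-phosphate tag, and 3 of the 8 sorting genes tested fell (37.5%, near the 31.8% of all genes called lower) while none rose in edgeR; none had an unadjusted p under 0.05 for a rise. Gnptab, of the enzyme that adds the tag, fell from 2059 ± 51.9 to 1272 ± 65.4 (-0.69 ± 0.0487, adjusted p = 1.54e-14). Nagpa, the uncovering enzyme that completes the tag, had -0.81 ± 0.134, and the receptor gene M6pr fell by 0.10 (SE 0.0440, adjusted p = 0.0409), with control and H/R libraries that overlapped.

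**Figure D4:**
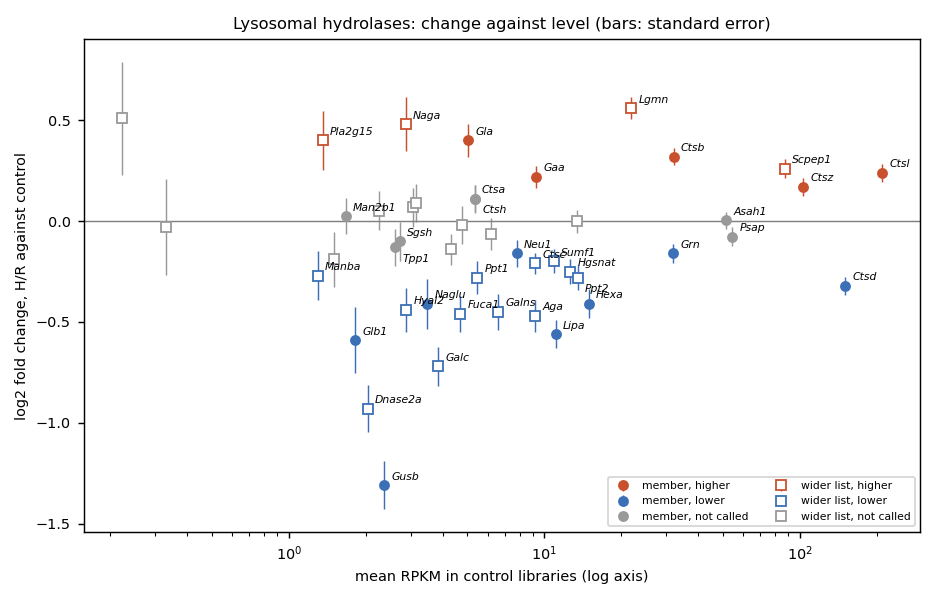
The log2 fold change of H/R against control (y axis, bars showing the standard error) is plotted against the mean RPKM in control libraries (x axis, log scale) for hydrolase genes, with members as filled circles and the wider list as open squares, coloured by their call under TMM scaling. Gusb lies lowest at -1.31, and Ctsb, Ctsl and Ctsz, all called higher (Ctsz not with upper quartile scaling or library totals), lie at high levels beside Ctsd, which was called lower.

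On the RPKM scale, which uses exon length and library totals without TMM factors, levels of the 42 genes spanned a wide range. Changes between groups on this scale therefore differ from those of normalized counts. Cd63 was the highest in both groups, with means of 321 in control and 284 in H/R, followed by Ctsl (209.9 and 230.4) and Lamp1 (182 and 173). The mean normalized counts of Lamp1 were instead 9941 in control and 10158 in H/R. The V1 gene Atp6v1d passed from the sixth to the fourth place, from 104 to 167 RPKM, and thereby above Ctsd, which went from 150.3 to 112. Atp6v1a moved from 8.17 to 12.3 and Gusb from 2.36 to 0.886. Among the V1 members, RPKM in control ran from 2.83 for Atp6v1h to 122 for Atp6v1g1. Much of that span came from the exon lengths used, 9746 and 1135 bases. The mean normalized counts of these genes in control were 563 and 2833.

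The upstream sequences of a few of these genes are given because TFEB-family factors bind an E-box with the core CACGTG, often as TCACGTGA in lysosomal genes, and because Atp6v1a and Gla were called higher, Mcoln1 and Lamp1 were not called, and Atp6v1d was the pump gene with the largest rise. RefSeq promoter windows, from 250 bases before to 50 bases after each transcript start in GRCm38.p6, were matched for 35 of the 42 genes. The 250 bases before the RefSeq start are printed from 5′ to 3′ on the gene's own strand, with TCACGTGA or, outside it, CACGTG in capitals. The annotation used for the counts places some starts further upstream. There the Atp6v1a gene ends at 44139705, so its printed bases lie wholly within its span. Those of Gla (gene end 134601125) and Mcoln1 (gene start 3500457) lie partly within theirs. The regions are chr16:44139260-44139509 on the minus strand for Atp6v1a, chrX:134601006-134601255 on the minus strand for Gla, chr8:3500269-3500518 on the plus strand for Mcoln1, chr8:13158911-13159160 on the plus strand for Lamp1 and chr12:78861639-78861888 on the minus strand for Atp6v1d.
Atp6v1a: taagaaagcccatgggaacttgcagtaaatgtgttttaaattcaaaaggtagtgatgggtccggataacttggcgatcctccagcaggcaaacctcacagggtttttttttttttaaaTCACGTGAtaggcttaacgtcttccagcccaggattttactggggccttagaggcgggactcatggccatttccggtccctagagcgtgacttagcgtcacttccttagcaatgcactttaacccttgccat
Gla: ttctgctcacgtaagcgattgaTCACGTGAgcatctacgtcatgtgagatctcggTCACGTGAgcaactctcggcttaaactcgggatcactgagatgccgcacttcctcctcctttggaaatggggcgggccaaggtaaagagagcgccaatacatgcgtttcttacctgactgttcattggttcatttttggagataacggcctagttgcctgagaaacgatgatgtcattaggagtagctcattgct
Mcoln1: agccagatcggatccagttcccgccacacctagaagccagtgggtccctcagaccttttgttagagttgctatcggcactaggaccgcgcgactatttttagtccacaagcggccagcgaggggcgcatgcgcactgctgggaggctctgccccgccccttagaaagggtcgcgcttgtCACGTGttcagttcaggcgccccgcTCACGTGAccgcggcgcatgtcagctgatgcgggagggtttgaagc
Lamp1: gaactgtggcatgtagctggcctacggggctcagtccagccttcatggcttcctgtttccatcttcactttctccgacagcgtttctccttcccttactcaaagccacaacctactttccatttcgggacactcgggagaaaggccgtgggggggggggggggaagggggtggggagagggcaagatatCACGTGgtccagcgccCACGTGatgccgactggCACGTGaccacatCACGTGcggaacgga
Atp6v1d: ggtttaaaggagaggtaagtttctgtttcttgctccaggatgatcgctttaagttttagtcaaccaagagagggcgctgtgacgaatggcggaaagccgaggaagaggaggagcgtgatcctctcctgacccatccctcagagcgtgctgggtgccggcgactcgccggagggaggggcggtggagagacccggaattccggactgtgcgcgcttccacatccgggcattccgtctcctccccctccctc

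The Gla sequence held 2 copies of TCACGTGA, those of Atp6v1a and Mcoln1 held 1 each, that of Lamp1 held 4 copies of the shorter CACGTG, and that of Atp6v1d held none. Both motifs read the same on both strands, and each TCACGTGA contains a CACGTG. In the full windows, CACGTG was found for 13 of the 35 matched genes (37.1%), against 8.09% of all 27025 genes with a RefSeq window, and TCACGTGA for 6 of 35 (17.1%), against 1.12%. Genes with the 8-base motif went each way in H/R: Atp6v0d1, Atp6v1a and Gla were higher, Ctsd was lower, and Ctsa and Mcoln1 were not called. Windows were matched for only 10 of the 15 genes called higher, against all 8 called lower and 16 of the 18 not called. The genes called higher that lacked one were Ctsb, Atp6v1b2, Atp6v1c1, Atp6v1g1 and Atp6v1h. For CACGTG, the windows of 5 of those 10 genes called higher, 3 of 8 called lower and 4 of 16 not called held it. The window of Ctsf, not tested, also held CACGTG. None of the 3 TFEB-family genes had it in its window. These matches describe the letters present and were not tested against the changes in expression.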

How the data were processed

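RNA-seq was done on 3 control and 3 H/R libraries of AML12 cells, grouped by their labels. Per the labels and the study's methods, RNA was extracted with TRIzol, stranded mRNA libraries were prepared, and GRCm38 was the genome used for mapping, by a program the paper spells STRA. The submitters' processing notes list Trimmomatic 0.36, featureCounts, Subread 1.5.1 and edgeR 3.12.1. Whether counting used strand is not given in the sources used here. The authors deposited counts per gene, which are whole numbers, and RPKM values, which equal those counts scaled by exon length and library total. Counts were analysed with edgeR 4.0.16 in R 4.3.3: filterByExpr, TMM, robust quasi-likelihood fit without covariates, and Benjamini-Hochberg adjustment over 14020 genes. Fold changes are H/R over control. The fit was tested on simulated data. DESeq2 1.42.0, other scalings and filters, a replicate block and leaving out each library were alternatives. Normalized counts are counts divided by effective library size and multiplied by its mean. Library totals ranged from 20438746 to 21854790 counts, and genes with few counts are imprecise.

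The 42 members and all lists (wider lysosomal genes, markers) were chosen with earlier results of these data known. Genes named with values in every library were the TFEB family, the membrane proteins, the 4 most changed called hydrolases in each direction and the 3 most changed called pump genes, plus 3 called genes in each direction from the wider list with a mean count of at least 100; Atp6v0d1, Ctsf, Cd68, the genes that share exons and further genes of the wider list were added after their values were seen. Of 94 wider genes, 89 had a row here and 79 were tested, with 19 higher and 27 lower; a few of them are counted but not named or plotted here. The endothelial list summed to 0.141 to 0.595 CPM and the stellate cell or fibroblast list to 0.538 to 1.13 CPM over all libraries, and the melanocyte list to 0.476 to 1.41 CPM in control and 1.17 to 1.56 in H/R. Exon overlap was computed from the exon coordinates given with the deposited counts, and 13 members shared exon sequence with another gene of the tables. Promoters came from RefSeq (GRCm38.p6).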

Additional observations from a re-analysis of the deposited data

How the results depend on the processing

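The scaling mattered most. With upper quartile scaling and library totals, 13 and 14 members were called lower against 8, and 3 membrane genes in each against 0. Library totals left 3 hydrolase genes higher against 5. The median log2 fold changes under upper quartile and library totals were -0.02 and -0.055 for all members, 0.25 and 0.22 for the TFEB family, -0.092 and -0.13 for membrane proteins, -0.16 and -0.19 for hydrolases, and 0.22 and 0.18 for the pump. Single genes whose sign turned under these scalings were Lamp1 (-0.039 and -0.074), Scarb2 (-0.033 and -0.067), Mcoln1 (-0.043 and -0.077), Man2b1 (-0.046 and -0.081), Asah1 (-0.065 and -0.10), Atp6ap1 (-0.02 and -0.055) and Atp6ap2 (-0.019 and -0.054), and, with library totals only, Ctsh (-3.2e-05), Atp6v0c (-0.018) and Atp6v1e1 (-0.02). None of these was called under TMM. Asah1 also turned with at least 10 counts in every library (-0.0034). Leaving out 1 library gave 6 to 10 members lower and 15 or 16 higher. Of all genes, 28.3% to 29.9% were then higher and 28.6% to 30.2% lower. These fits gave 0 to 2 membrane genes lower, 8 or 9 pump genes higher and a pump median of 0.25 to 0.31. They turned the sign of Scarb2 (-0.0051 to 0.077), Man2b1 (-0.0091 to 0.086), Asah1 (-0.016 to 0.028) and Atp6ap1 (-0.012 to 0.12). Dropping the filter, a minimum of 10 counts and the replicate block each gave 1 membrane gene lower (Lamp2). Among the 29 members that share no exon sequence, 12 were higher and 4 lower. The share of all genes without shared exons was not computed. At a fold threshold of 1.5 instead of 2, 7 members passed both thresholds against 2. A lower threshold lets more genes through, and the share of all genes at 1.5-fold was not computed. Same-numbered libraries did not deviate together (r of -0.03, 0 and -0.01), so the numbers were not taken as pairs. With the replicate block in edgeR, Lamp2 was called lower (adjusted p = 0.0333). Under that block, 15 members were higher (36.6%) and 9 lower (22.0%), beside 31.0% and 31.6% of all genes. Over single genes and alternatives, 522 values kept direction and call, 20 gained a call, 10 lost one and 24 turned sign.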
